A study of Mus musculus with 8 samples.

Results

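Elastic fibre and lysyl oxidase genes were examined in hearts of mice overexpressing PKR2 and of wild-type (WT) mice. The set is 10 genes taken by symbol (Eln, Fbn1, Fbln1, Fbln2, Fbln5, Lox, Loxl1, Loxl2, Mfap4 and Mfap5), out of 27745 gene names on the array, and every probe carrying one of these names was kept, 14 of 41174 probes. The samples were hearts of male mice aged 12 weeks, 4 labelled WT and 4 labelled as overexpressing PKR2, read here as prokineticin receptor 2, each hybridised alone to a 1-colour oligonucleotide array. The strain, the promoter behind the overexpression and the cell type it acts in are not given in the sources used here, and nothing says whether the hearts came from separate litters.

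Elastic fibres give recoil to arteries, valves and the heart wall. Their core is cross-linked elastin, laid down on a scaffold of fibrillin microfibrils, and fibulins and microfibril-associated proteins sit between scaffold and core and guide assembly. Lysyl oxidases are secreted copper enzymes that oxidise lysines of elastin and collagen so that chains become cross-linked. In the heart these genes are known mainly from fibroblasts, vascular smooth muscle and valve cells.

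A level below is the log2 processed signal of a probe minus the 75th percentile of its array, so levels of one probe can be compared between hearts and levels of different probes cannot. Differences are PKR2 minus WT on that log2 scale, with n = 4 hearts per group. Of the 14 probes, 12 from 9 genes exceeded background clearly on 3 or more of the 4 arrays of WT or of PKR2 hearts and were tested; both Fbln5 probes did not. A probe was called changed at a limma p of 0.05 after Benjamini-Hochberg adjustment over all 22717 tested probes. The 75th percentile of signal ran from 40.9 (WT 2) to 770 (PKR2 1), and 48.3% to 67.1% of spots were well above background. All 10 cardiomyocyte markers examined, among them Myl2 and Myh6, were above background on all 8 arrays. The Prokr2 probe was above background on none of the 8 arrays and so does not check the genotype labels. Bulk tissue RNA cannot tell fewer cells of a type from less RNA per cell.

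None of the 12 tested probes was called changed (0 of all 22717 probes, 0.0%). None had an unadjusted limma p under 0.05, beside 2.58% of all probes, and in none did the WT and PKR2 hearts fail to overlap, beside 1.83% of all probes. Values were higher in PKR2 hearts for 9 probes and lower for 3, with a median difference of 0.13 beside 0.019 over all tested probes, of which 54.2% were higher. With 1 probe per gene, 6 of the 9 genes were higher (median 0.16), beside 50.4% of all such features. The differences ran from -0.23 (Lox) to 0.30 (a Fbln1 probe), and the limma adjusted p was 0.9997 for each of the 12. The median difference was positive whichever heart was left out, from 0.0066 (without PKR2 4) to 0.20, and was 0.024 without WT 3. The median over all tested probes was 0.027 without PKR2 4 and 0.025 without WT 3, so the members did not exceed it in either refit. The median member difference was 0.015 with normexp, beside 0.00865 over all tested probes. In a fit to the authors' deposited table it was -0.0090, beside -0.0033 over all tested probes. Normexp here means background correction of the mean spot signal with an offset of 50, followed by quantile normalization. Input signal, background step and scaling thus changed together.

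**Figure D1:**
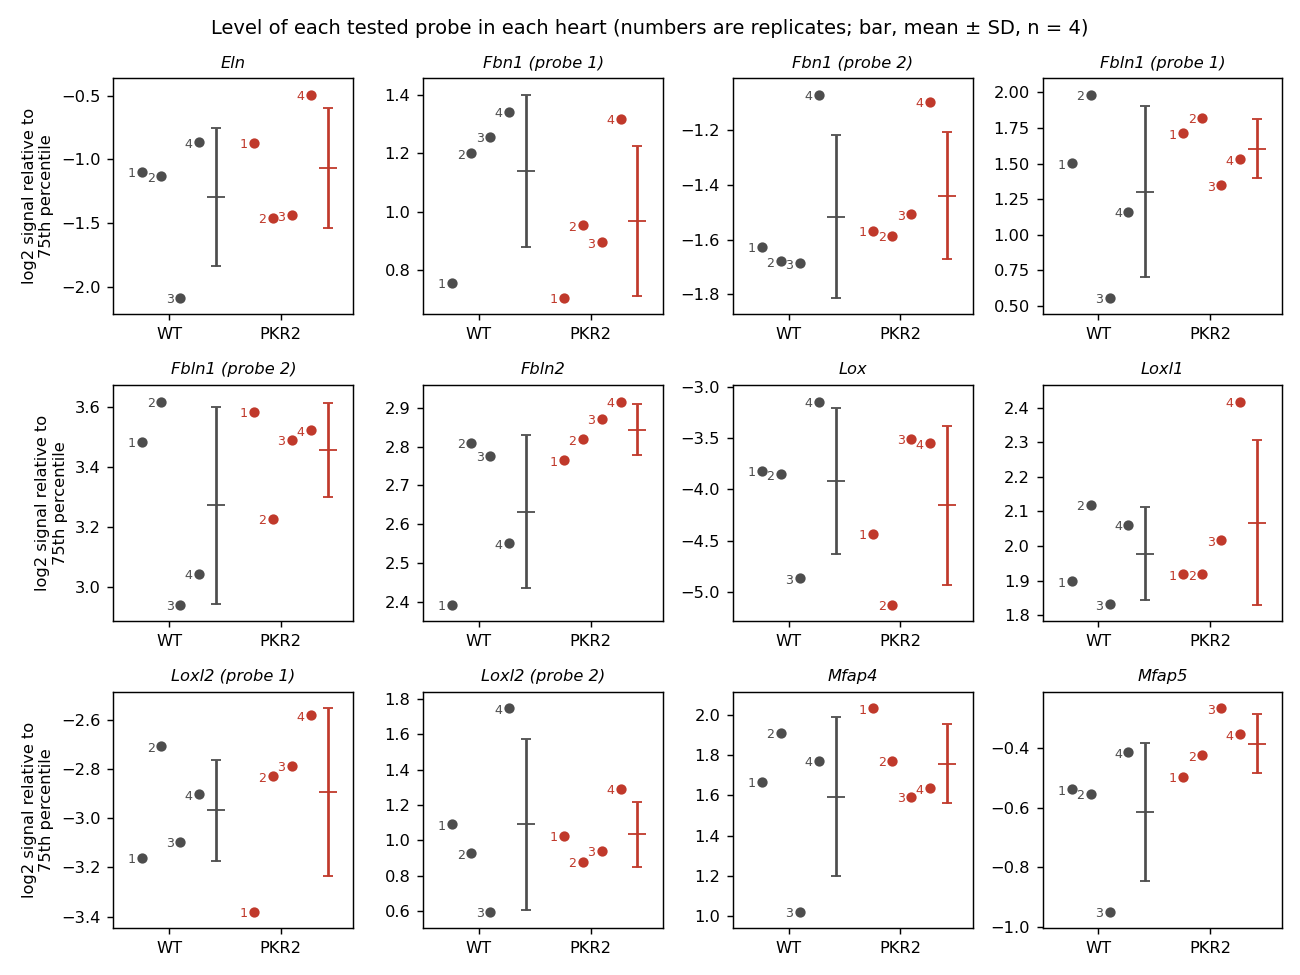
Each panel plots 1 tested probe, with the level (log2 signal relative to the array's 75th percentile) on the vertical axis, 4 WT hearts in grey and 4 PKR2 hearts in red; numbers are replicates and bars are mean ± SD, and each panel has its own axis. The WT and PKR2 hearts overlap in all 12 panels, and WT 3 is the lowest of the 8 hearts in 8 of them.

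The core protein came first. Eln encodes tropoelastin, the soluble precursor of elastin, and its probe lies on chromosome 5, 134987886 to 134987945 (minus strand, build mm8, to which all probe positions refer). Its level was -1.095 in WT 1, -1.13 in WT 2, -2.09 in WT 3 and -0.87 in WT 4, against -0.87, -1.46, -1.44 and -0.49 in PKR2 1 to PKR2 4. WT 3 was the lowest heart and PKR2 4 the highest, and the groups overlapped. The means were -1.295 ± 0.54 (SD, n = 4) in WT and -1.065 ± 0.47 in PKR2 hearts. They differed by 0.23 (SE 0.31, limma adjusted p = 0.9997). The 95% interval, -0.46 to 0.92, spans a fold of 0.726 to 1.89, so a fold inside that span cannot be told from no change with 4 arrays a group. The difference was -0.033 without WT 3, -0.073 with the authors' deposited table and -0.013 with normexp, whereas slide as a fixed block gave 0.51.

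The scaffold gene Fbn1 encodes fibrillin 1, the main building unit of adult microfibrils. Its probes, A_51_P467224 (chromosome 2, 124992432 to 124992491) and A_52_P224801 (124992959 to 124993018), start 527 bases apart on the minus strand. By the first, levels were 0.76, 1.20, 1.26 and 1.34 in WT 1 to WT 4 and 0.70, 0.95, 0.89 and 1.32 in PKR2 1 to PKR2 4. The difference was -0.17 (SE 0.19, limma adjusted p = 0.9997). It was -0.3003 without WT 1 and -0.084 without PKR2 1. By the second, the difference was 0.076 (SE 0.20, limma adjusted p = 0.9997), so the probes of this gene differed in sign, each within its error. On the second probe the highest hearts were the pair that shared a slide, one of each genotype. WT 4 (-1.07) and PKR2 4 (-1.095), which lay on the same slide, stood above the other WT hearts (-1.69 to -1.63) and the other PKR2 hearts (-1.59 to -1.51). The hearts of that slide were also the highest pair for the other Fbn1 probe, for Eln and for 1 Loxl2 probe, 4 of 12 member probes in all, beside 4.46% of all tested probes. Scan range was inferred here from a scanner slope in the file headers. By that slope WT 4 and PKR2 4 were read as scanned at a single low range together with WT 2. The other 5 arrays were read as scanned over an extended range. The part of slide or scan range in these levels was not tested.

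The microfibril-associated genes had small differences as well. Mfap5 encodes a glycoprotein that binds fibrillin, and its probe lies on chromosome 6, 122494539 to 122494598. Its levels were -0.54, -0.55, -0.95 and -0.41 in WT 1 to WT 4 and -0.50, -0.42, -0.27 and -0.35 in PKR2 1 to PKR2 4. Only WT 4 among WT hearts reached the PKR2 range, and the PKR2 hearts were tight (SD 0.098 against 0.23 in WT). The difference was 0.23 (SE 0.16, 95% interval -0.13 to 0.59, limma adjusted p = 0.9997). It was 0.12 without WT 3 and -0.011 in a fit to the authors' deposited table, in which 5 of 12 members and 49.0% of all probes were higher in PKR2 hearts. Mfap5 was the member with an unadjusted limma p under 0.05 when arrays were weighted, as were 12.1% of all probes. Its groups did not overlap without WT 4, like those of the second Fbn1 probe (3.3% of all probes), nor without PKR2 1 and PKR2 2, like those of Fbln2 (10.8%). Mfap4, a fibrinogen-domain protein that binds elastin and fibrillin (chromosome 11, 61304789 to 61304848), was at 1.67, 1.91, 1.02 and 1.77 in WT 1 to WT 4 and at 2.03, 1.77, 1.59 and 1.64 in PKR2 1 to PKR2 4. Here WT 3 alone lay below the PKR2 hearts. The Mfap4 difference of 0.16 (SE 0.22, limma adjusted p = 0.9997) was -0.025 without WT 3.

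Fibulins were measured by 5 probes, of which 3 were above background. Fbln1 encodes fibulin 1, found in elastic fibres and basement membranes of the heart and vessels. Probe A_51_P154417 (chromosome 15, 85113190 to 85113250) gave 1.502, 1.98, 0.56 and 1.16 in WT 1 to WT 4 and 1.71, 1.82, 1.35 and 1.53 in PKR2 1 to PKR2 4. Probe A_52_P588483, which starts 144 bases further on (85113334 to 85113393), gave 3.49, 3.62, 2.94 and 3.05 in WT and 3.59, 3.23, 3.49 and 3.52 in PKR2 hearts. On both probes WT 3 was lowest, WT 4 second lowest and WT 2 highest, so the WT hearts spanned the whole PKR2 range. The differences were 0.30 (SE 0.28) and 0.18 (SE 0.19), each with a limma adjusted p of 0.9997, and 0.054 and 0.074 without WT 3.

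Fbln2 encodes fibulin 2, a large fibulin of vessel walls and developing valves, and was the most uniform member in PKR2 hearts. Its probe (chromosome 6, 91237628 to 91237687) gave 2.39, 2.81, 2.78 and 2.55 in WT 1 to WT 4 and 2.77, 2.82, 2.87 and 2.92 in PKR2 1 to PKR2 4. WT 1 and WT 4 lay below all PKR2 hearts, and WT 2 and WT 3 lay within the PKR2 range. The difference was 0.21 (SE 0.15, 95% interval -0.13 to 0.55, limma adjusted p = 0.9997). Without PKR2 1 alone the Fbln2 groups did not overlap, as for 2.7% of all probes. The difference was as large without WT 3 (0.26) and was positive in all 23 refits, from 0.13 to 0.45. Some of these refits changed only the probes tested or the variance trend and so left the difference at 0.21. It was 0.38 with normexp, where its unadjusted limma p was 0.0120 (adjusted p = 0.9999), and 0.38 in a fit to the authors' deposited table, where it was 0.0170 (adjusted p = 1.0). Unadjusted p values under 0.05 were held by 3.42% and 2.68% of all probes in these fits. The groups did not overlap for Fbln2 in either, as for 2.33% and 2.15% of all probes. After common scaling, normexp gave the same 2 calls for Fbln2 (3.48% and 2.33% of all probes). Of the tested fibulins, Fbln2 was also the one in which WT 3 did not stand low.

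The stretches before the start sites of Fbln1 and Fbln2 are set side by side here because these fibulins differed in that respect. They are RefSeq sequences of build GRCm38.p6, 250 bases upstream of the start on the plus strand, with GC boxes (GGGCGG) and SMAD-binding elements (CAGAC), searched on both strands, in capitals.
Fbln1, chr15:85205699-85205948: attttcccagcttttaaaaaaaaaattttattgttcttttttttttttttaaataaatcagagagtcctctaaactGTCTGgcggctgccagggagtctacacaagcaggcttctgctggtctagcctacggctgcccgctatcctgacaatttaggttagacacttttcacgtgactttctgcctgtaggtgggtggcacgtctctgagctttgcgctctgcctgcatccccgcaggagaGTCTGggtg
Fbln2, chr6:91212514-91212763: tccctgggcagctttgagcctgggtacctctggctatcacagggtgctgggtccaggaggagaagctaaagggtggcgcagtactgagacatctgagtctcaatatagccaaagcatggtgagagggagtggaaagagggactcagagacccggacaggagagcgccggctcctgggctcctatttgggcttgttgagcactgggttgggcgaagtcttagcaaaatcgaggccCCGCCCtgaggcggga
The Fbln1 stretch held 2 SMAD-binding elements and no GC box, and the Fbln2 stretch 1 GC box and no SMAD-binding element. Over 32851 such stretches, 42.2% held a CAGAC and 32.7% a GGGCGG, so each is common. A second RefSeq start of Fbln1 further downstream had 1 GC box beside the same 2 elements. A letter match is a description and says nothing about factors bound in these hearts. In all, 4 of the 10 genes were matched in the RefSeq promoter table: Fbn1, Fbln1, Fbln2 and Fbln5.

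Fbln5 encodes fibulin 5, which binds tropoelastin and is needed for elastic fibre assembly in mice. Both of its probes stayed at background in all 8 hearts. Probe A_52_P278336 (chromosome 12, 102147718 to 102147777) gave -6.42 to -4.75 in WT and -7.61 to -6.10 in PKR2 hearts, and probe A_52_P288050 (102165542 to 102165601) gave -6.80 to -5.31 and -7.39 to -5.91. The scanner software put the error of single spots at 27.7% to 100% of the signal for the former and 99.5% to 99.6% for the latter. These probes start 17824 bases apart on the minus strand and are annotated to different transcript records. No difference or fold is given for Fbln5, and its transcript was not detectable with these probes at this signal, which does not show that it is absent.

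**Figure D2:**
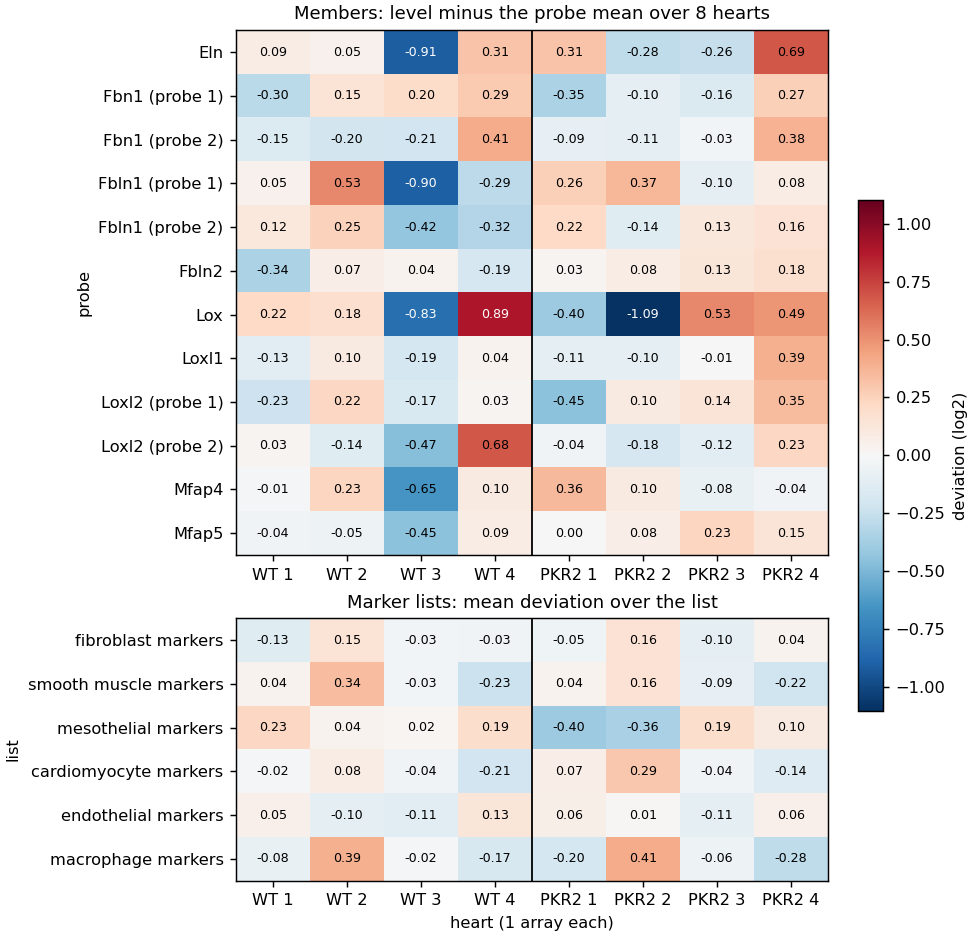
Colours and numbers give, for each heart (columns), the level of each tested probe minus that probe's mean over the 8 hearts (upper part, log2) and the mean of such deviations over 6 lists of cell type markers (lower part). The column of WT 3 is blue for all members but Fbln2 and the first Fbn1 probe, while its marker lists lie between -0.11 and 0.021.

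The cross-linking enzymes were represented by Lox, Loxl1 and Loxl2. Lox encodes the founding lysyl oxidase and lies on chromosome 18. Its probe was dim: it was well above background on 2 of 4 WT and 3 of 4 PKR2 arrays, and the software's spot error ran from 12.2% to 49.5%. Levels were -3.82, -3.85, -4.87 and -3.14 in WT 1 to WT 4 and -4.43, -5.12, -3.51 and -3.55 in PKR2 1 to PKR2 4. Each group thus held hearts at both ends of the range. The difference was -0.23 (SE 0.43, 95% interval -1.20 to 0.73, limma adjusted p = 0.9997), the widest interval of the 12 probes. Its sign turned with slide as a fixed block (0.48) and without PKR2 2 (0.091), and it was -0.55 without WT 3.

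Loxl1 encodes the lysyl oxidase that works with fibulin 5 on elastin in mice (probe on chromosome 9, 58088900 to 58088959). Its levels were 1.90, 2.12, 1.83 and 2.06 in WT 1 to WT 4 and 1.92, 1.92, 2.02 and 2.42 in PKR2 1 to PKR2 4. PKR2 4, WT 2 and WT 4, the 3 arrays of the single low scan range, were the 3 highest, a pattern held by 0.638% of all tested probes. The difference was 0.090 (SE 0.17, limma adjusted p = 0.9997), 0.17 with scan range as a block and -0.027 without PKR2 4. Loxl2, which also acts on basement membrane collagen, had probes A_51_P275949 (chromosome 14, 68427414 to 68427473) and A_52_P480351 (68430527 to 68430586), starting 3113 bases apart. They are annotated to different transcript records, the second to a predicted transcript. By the first, levels were -3.16 to -2.71 in WT and -3.38 to -2.58 in PKR2 hearts. By the second they were 0.60 to 1.75 and 0.88 to 1.29. The PKR2 hearts enclosed the WT range on the first probe and lay inside it on the second, and the differences of 0.073 (SE 0.20) and -0.055 (SE 0.24) had opposite signs, each with a limma adjusted p of 0.9997.

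The clearest structure in the set was between hearts and not between groups. WT 3 was the lowest of the 8 hearts in 8 of 12 member probes, from the genes Eln, Fbn1, Fbln1 (both probes), Loxl1, Loxl2, Mfap4 and Mfap5, beside 10.9% of all tested probes. Fbn1 counts there by its second probe alone, where WT 3 (-1.687) was barely below WT 2 (-1.679). On the first Fbn1 probe WT 3 stood 0.20 above the probe mean. Loxl2 counts by A_52_P480351 alone, and PKR2 1 was the lowest heart on its other probe. The mean deviation of WT 3 over the 12 probes was -0.41, against -0.11 (PKR2 2) to 0.28 (PKR2 4) in the other hearts. WT 3 remained the heart with the lowest mean deviation under median scaling (-0.29, lowest in 6 probes) and quantile normalization (-0.40, in 7). The same held with normexp (-0.25, in 6) and in the authors' deposited table (-0.29, in 6). Of all tested probes, 4.6% (median scaling) to 13.7% (authors' deposited table) were lowest in WT 3 in these settings. The gap to the next-lowest heart was narrower under median scaling, where PKR2 1 stood at -0.20. That heart was PKR2 2 under quantile normalization (-0.10) and WT 1 with normexp and in the authors' deposited table (-0.051 in each). The pattern was noticed in these data and has no test. WT 3 was also the lowest heart for the mean deviation of the partner lists of assembly (-0.17), cross-linking (-0.12) and receptor (-0.14) genes described further on, and for endothelial markers (-0.11), but not for the elastase list (0.031). Fibroblast and smooth muscle marker lists stood at -0.034 and -0.033 in WT 3, within -0.13 to 0.16 and -0.23 to 0.34 over all hearts. Adipocyte markers, which differed most between hearts, stood at -0.074 in WT 3, at -1.94 and -1.65 in PKR2 1 and PKR2 2 and at 0.21 to 1.09 in the other hearts. All 11 tested adipocyte markers had lower values in PKR2 hearts (median difference -1.73), 8 of them with an unadjusted limma p under 0.05, beside 1.19% of all probes lower at that p, and none past the adjusted threshold. Mesothelial markers ran from 0.021 to 0.23 in WT and from -0.40 to 0.19 in PKR2 hearts. In PKR2 1 and PKR2 2 the members' mean deviations were -0.021 and -0.11, and without these 2 hearts the median member difference was 0.24. The part of other cell types in the members' levels was not tested.

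**Figure D3:**
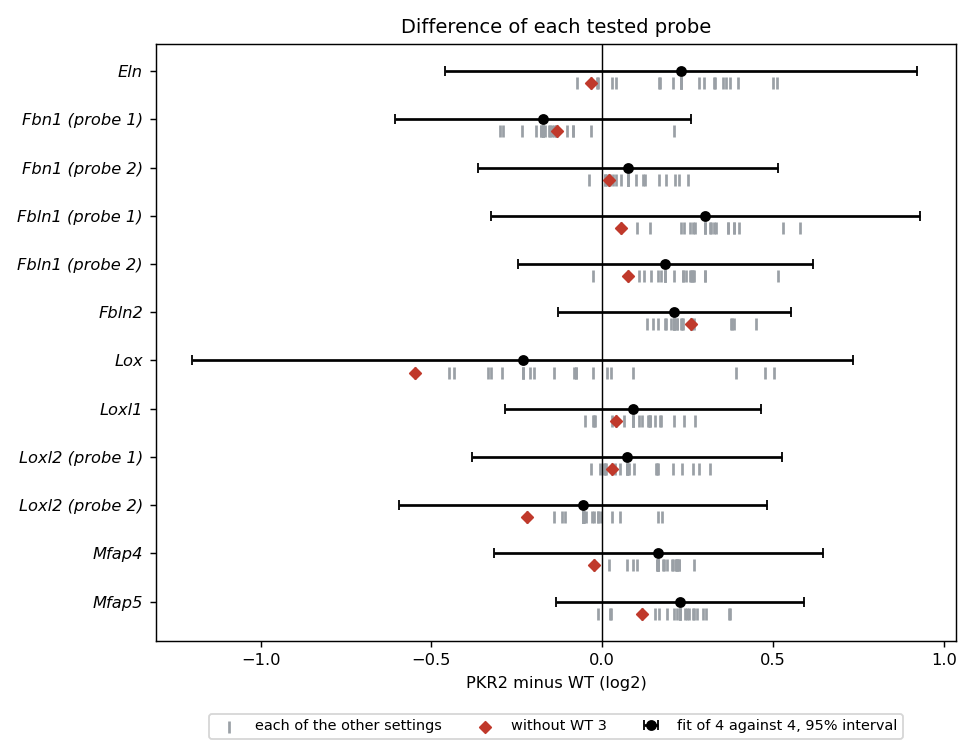
Black points give the PKR2 minus WT difference (log2, horizontal axis) of each tested probe with its 95% interval, grey ticks the same difference under each of the other settings, and red diamonds the difference without WT 3. All 12 intervals include 0, and without WT 3 the estimates for Eln and Mfap4 are -0.033 and -0.025.

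Within the slides that held a heart of each group, Eln differed by 0.65 on the slide of WT 3 and PKR2 3 and by 0.37 on that of WT 4 and PKR2 4, and the Fbln1 probes by 0.79 and 0.55 on the former and by 0.37 and 0.48 on the latter. Mfap5 differed by 0.68 and 0.060, Fbln2 by 0.096 and 0.37, and Lox by 1.36 and -0.41. Mfap4 differed by 0.57 and -0.14, and Loxl1 by 0.19 and 0.36. For Fbn1 the values were -0.36 and -0.025 (A_51_P467224) and 0.18 and -0.025 (A_52_P224801). For Loxl2 they were 0.31 and 0.32 (A_51_P275949) and 0.34 and -0.45 (A_52_P480351). With slide as a fixed block, a fit that rests on these 4 hearts and includes WT 3, Eln and both Fbln1 probes had an unadjusted limma p under 0.05, as did 7.03% of all probes, and the smallest adjusted p of a member was 0.697. Position 4 of the slide held every PKR2 array and only WT 1 among WT arrays, so position and genotype cannot be told apart except against WT 1.

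The profile of Eln over the 8 hearts was closest to those of Ccnb2, a mitotic cyclin, Ptpn9, a tyrosine phosphatase, and Foxs1, a forkhead factor, with root-mean-square differences between standardised profiles of 0.280, 0.303 and 0.332 among 13540 named genes (median 1.40). Each of these 3 was lowest in WT 3, as Eln was. They were picked by likeness to Eln over the same hearts, so this adds nothing to the WT 3 pattern. The profile of Lox was closest to those of Dennd2d (0.265), Slamf8 (0.279) and Gfpt2 (0.324). Each of them was highest in WT 4 and lowest in PKR2 2, as Lox was, which again goes with how they were picked. No member was among the closest 3 of either gene: the closest member was Loxl2 for both, at 0.708 from Eln and 0.711 from Lox. Its probe A_52_P480351 stood for Loxl2 there.

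Partners of the pathway were counted in 4 lists, with 1 probe per gene, and no gene of any list passed the adjusted threshold. Over all features with 1 probe per gene, 50.4% had higher values in PKR2 hearts, the share to set beside the counts of each list. Of 19 tested genes of fibre and microfibril assembly, the value was higher in PKR2 hearts for 12 and lower for 7 (median 0.071). Emilin1, which encodes a glycoprotein at the border of elastin and microfibrils, was at -0.91 to -0.26 in WT and -0.17 to 0.030 in PKR2 hearts, so the groups did not overlap, as held for 1 of the 19 genes and 1.83% of all probes. Its difference was 0.46 (SE 0.17, limma adjusted p = 0.9997), 0.47 without WT 3 and 0.26 with normexp. Adamtsl2, a secreted protein that binds fibrillin, was at -1.24 to -0.54 in WT and -0.59 to -0.19 in PKR2 hearts. Its difference of 0.505 (SE 0.19, limma adjusted p = 0.9997) was 0.25 with normexp and 0.37 without WT 3. Emilin1 and Adamtsl2 were the 2 genes of the list with an unadjusted limma p under 0.05 (0.0249 and 0.0242), beside 2.58% of all probes and 2.42% of features with 1 probe per gene. Hmcn1, which encodes hemicentin 1, a fibulin relative, differed by 0.48 (SE 0.23, limma adjusted p = 0.9997), by 0.16 with normexp and by 0.18 in a fit to the authors' deposited table.

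The next list held relatives, activators, copper suppliers and substrates of lysyl oxidase, and also the lysyl hydroxylase genes Plod1, Plod2 and Plod3. Of its 13 tested genes, 9 had higher and 4 lower values (median 0.041). The smallest p values belonged to the collagen lysyl hydroxylase genes Plod1 (0.37, SE 0.20) and Plod2 (0.14, SE 0.17) and to Atp7a, whose product loads copper onto secreted enzymes (0.12, SE 0.13). Proteases that cut elastin and their inhibitors had 3 higher and 9 lower values among 12 tested genes (median -0.093), with Mmp9 at -0.27 (SE 0.18), Mmp2 at 0.30 (SE 0.28) and the cathepsin gene Ctsb at -0.18 (SE 0.19). These values moved with single hearts: Mmp9 was -0.15 without PKR2 2 (and -0.028 with normexp), Mmp2 ran from 0.12 without PKR2 1 to 0.51 without WT 1, and Ctsb was -0.083 without PKR2 1. The list median was 0.024 without PKR2 1 and -0.23 without PKR2 2. Of 11 receptor genes 9 had higher and 2 lower values (median 0.088), with the integrin subunit genes Itga8 at -0.42 (SE 0.25), Itga9 at 0.24 (SE 0.26) and Itgb6 at -0.18 (SE 0.21). None of the tested genes of these 3 lists had an unadjusted limma p under 0.05, and each of the 9 named had a limma adjusted p of 0.9997. Position as a covariate, which sets the PKR2 arrays against WT 1 alone, turned the sign of Mmp2, Ctsb, Itga9 and Itgb6.

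**Figure D4:**
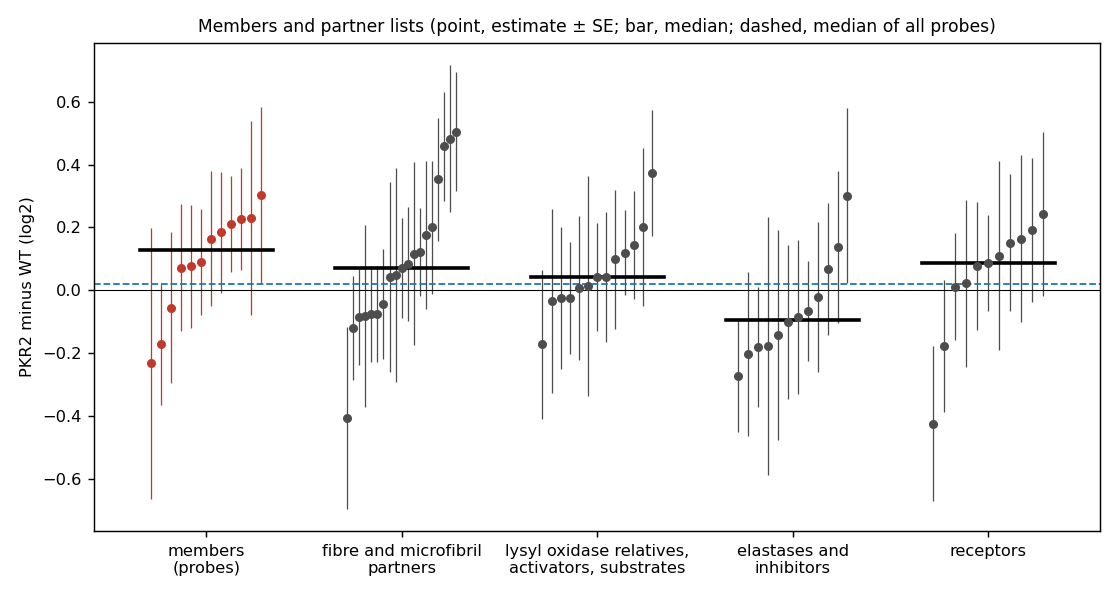
Points give the PKR2 minus WT difference (log2, vertical axis) ± SE of each member probe (red) and each tested gene of the 4 partner lists (grey), sorted within each list; bars are list medians and the dashed line is the median of all tested probes, 0.019. The list medians lie between -0.093 (elastases and inhibitors) and 0.13 (members), and the highest points of the assembly list are Adamtsl2, Hmcn1 and Emilin1.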

How the data were processed

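Heart RNA of 8 mice, 4 WT and 4 PKR2, was measured on 1-colour arrays (Cy3). Per the file headers, Agilent Feature Extraction 9.5.1.1 marked outlying spots and removed background and spatial trends; the deposited intensity is linear and not normalized between arrays, and probe positions refer to mm8. The deposited value table holds intensity normalized between arrays in a way that the sources used here do not give, with medians of 139 to 144 per array, and served as an alternative.

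The log2 of the deposited intensity minus each array's 75th percentile was used. Control spots and flagged spots were left out and spots of a probe averaged; no member probe was saturated. Of 41174 probes, 22717 were tested; 97 further detected probes had no unflagged spot on some array. Members were matched by the file's gene name. For partner lists, probes were named through transcript accession (24375) or symbol and synonym (8727) in the RefSeq table of GRCm38.p6, and the tested probe of highest mean signal stood for a gene. The PKR2 minus WT difference was fitted without covariates by lmFit and eBayes of limma 3.58.1 (R 4.3.3, data.table version 1.17.8), tested on simulated data as well. Members, lists and motifs were chosen with earlier results of these data known. Named partner genes are the 3 of smallest p per list; for Eln and Lox the 3 genes of nearest standardised profile are named. P-values set the difference between groups against the spread of hearts within groups, which eBayes adjusts using all tested probes. That spread includes any part that slide, position and scan range have in it. The fit reported treated the arrays as independent. For the fit with slide as a random block, the correlation between arrays of a slide was estimated at 0.52. The number of arrays limits precision: the 95% interval of a difference extended, on each side, by 0.48 in the median probe. Alternatives were other background corrections, scalings, filters, 1 probe per gene, slide, position and scan range as terms, other variance models and leaving out arrays. Normexp took the mean spot signal and median background in place of the processed intensity and ended with quantile normalization. It therefore changed more than the background step. Normexp after common scaling was added after the data were seen.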

Additional observations from a re-analysis of the deposited data

Results flagged for a closer look

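Among 48 groups of 4 hearts examined (12 member probes and 12 named partner genes in each of 2 groups), 3 held a heart whose gap to the nearest other exceeded Dixon's 95% critical share of the group's range; chance flags about 1 in 20. For Fbn1 probe A_52_P224801, WT 4 stood at -1.07 against -1.69 to -1.63 in the other WT hearts, and PKR2 4 at -1.095 against -1.59 to -1.51 in the other PKR2 hearts. These 2 arrays share a slide and a scan range, whose part was not tested. For the integrin gene Itga8, WT 2 stood at 1.499 against 0.53 to 0.55 in the other WT hearts; the Itga8 difference was -0.18 without it and -0.42 with it.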

How the results depend on the processing

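No member probe passed the adjusted threshold in the fit reported or in any of 23 refits (smallest limma adjusted p = 0.388, with array weights), and the sign turned in 25 of 272 refits of single probes. Fbln2 and Fbln1 probe A_51_P154417 kept theirs throughout. Refits that changed only the filter, the choice of probe or the variance trend left each difference as it was, so no sign could turn in them. With the authors' deposited table the sign turned for Eln (-0.073), Loxl1 (-0.052), Loxl2 A_51_P275949 (-0.0066), Mfap5 (-0.011) and Atp7a (-0.00013), and 5 member probes were higher in PKR2 hearts. With normexp, and with normexp after common scaling, Eln was -0.013 and -0.014 and Loxl1 -0.022 and -0.023. Position as a covariate gave 0.21 for Fbn1 A_51_P467224, -0.027 for Fbln1 A_52_P588483, -0.31 for Mmp2, 0.18 for Ctsb, -0.19 for Itga9, 0.059 for Itgb6, and medians of 0.17 for the elastase and -0.15 for the receptor list. Lox was 0.48 and 0.015 with slide as a fixed or random block, 0.504 with array weights and 0.39 without PKR2 1 and PKR2 2. Loxl2 A_52_P480351 was 0.052 with scan range as a block, 0.17 with array weights and 0.027 without PKR2 1 and PKR2 2. Plod2 was -0.032 with array weights and -0.019 without PKR2 1 and PKR2 2.

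Leaving out 1 heart, differences ran from -0.033 to 0.37 (Eln), -0.3003 to -0.084 (Fbn1 A_51_P467224), -0.038 to 0.22 (Fbn1 A_52_P224801), 0.054 to 0.53 (Fbln1 A_51_P154417), 0.074 to 0.3006 (Fbln1 A_52_P588483), -0.55 to 0.091 (Lox), -0.027 to 0.14 (Loxl1), -0.032 to 0.23 (Loxl2 A_51_P275949), -0.22 to 0.16 (Loxl2 A_52_P480351) and -0.025 to 0.27 (Mfap4). Member probes with an unadjusted limma p under 0.05 numbered 1 with either normexp setting (3.42% and 3.48% of all probes). They numbered 1 with the authors' deposited table (2.68%) or array weights (12.1%), and 3 with slide as a fixed block (7.03%). Member probes whose groups did not overlap numbered 1 with either normexp setting (2.33% of all probes in each) or the authors' deposited table (2.15%). They numbered 2 without PKR2 1 and PKR2 2 (10.8% of all probes), and 0 to 2 when 1 heart was left out (2.7% to 7.72%). The assembly list's median was -0.034 without PKR2 1 and PKR2 2 and -0.078 to 0.13 leaving out 1 heart, lowest without PKR2 1. Its genes with an unadjusted limma p under 0.05 numbered 0 with the authors' deposited table or position as a covariate (2.68% and 3.8% of all probes), 4 with slide as a random block or array weights (6.22% and 12.1%), 1 without PKR2 1 and PKR2 2 (2.04%), and 0 to 3 leaving out 1 heart (1.45% to 5.51%). Leaving out 1 heart, the smallest and largest differences were 0.037 and 0.22 for Plod2, 0.12 and 0.45 for Itga9, and -0.31 and -0.058 for Itgb6. Causes of these changes were not tested. Replicate numbers follow the order of deposit and pair no hearts. The slides of WT 3 with PKR2 3 and of WT 4 with PKR2 4 are the pairing that exists, used in the block fits and within-slide differences. Signal near background limits Lox and Fbln5.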
